A study of Mus musculus with 8 samples.

Results

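Of 128499 accessible regions (peaks) called on chromosomes 1 to 19 and X of MIN6 cells carrying a Klf4 expression plasmid, 4178 (3.25%) were at least 500 bp wide, shared no base with any peak of the cells carrying an empty vector, and lay more than 10 kb from every protein-coding gene body. Of the Klf4 peaks with that width and distance, 23.7% were absent from the empty vector list in this way, which the choice of members fixes. They covered 3374.5 kb, 4.01% of all sequence under Klf4 peaks. The members were chosen by width, by the absence of an overlapping empty vector peak and by distance from protein-coding genes of the GRCm38.p6 annotation, so peak width, peak strength and the excess over the empty vector are given as description. They are far from protein-coding genes but not from all genes: 1029 of 4178 (24.6%, 95% Wilson interval 23.35 to 26.0%) overlapped a gene of another biotype, mostly a long non-coding RNA (lncRNA).

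The libraries came from MIN6 cells, which grow from a mouse insulin-producing tumour, stand in for beta cells and are labelled wild type, and were made 48 hours after lipid transfection with pcDNA 3 Empty Vector (4 libraries) or with pGloMyc-Klf4 (4 libraries). The share of cells that took up a plasmid is not given in the sources used here. The libraries of a group are biological replicates per the submitters, who asked how forced Klf4 alters open chromatin in beta cells. Accessibility was measured by ATAC-seq, in which a transposase cuts and tags DNA not covered by nucleosomes. Each group has 1 merged peak list, so every measure has 1 value per group, there is no spread between libraries, and no difference between the lists could be tested. Each share carries a 95% Wilson interval, which covers counting error over peaks only and treats neighbouring peaks as independent. Read depth is unknown from the lists, which hold 128499 and 100049 peaks on these chromosomes. All 12 beta cell marker genes, among them Ins1, Ins2, Pdx1 and Nkx6-1, had a peak within 10 kb in both lists. So did 11 of 12 alpha cell, 5 of 5 fibroblast and 3 of 4 immune marker genes, so the presence of a peak near a marker does not separate cell types here.

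Klf4 has zinc fingers that contact GC-rich DNA, CACCC boxes among it, and is one of the factors used to reprogramme somatic cells to pluripotency. Open chromatin far from genes commonly marks enhancers, which act on promoters over long distances, and insulators bound by CTCF. Enhancers often stand in groups in the gene-poor stretches around genes for developmental transcription factors. Peaks far from protein-coding genes can also be promoters of lncRNA genes.

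Sequence was on hand for members that lie on the start of an lncRNA gene, as RefSeq windows from 250 bases before to 50 bases after a start (build GRCm38.p6). Of the 4178 members 117 touched such a window, and 60 windows of 55 lncRNA genes lay wholly inside 55 members. The windows below were chosen after their values were seen, to show Klf4-only peaks with and without a KLF-type match. They are those of the 4 strongest members with a match to CCNCACCC, the strongest member without one and the window with the most matches. They are written 5′ to 3′ on the strand of the gene, and capitals mark CCNCACCC or its reverse complement GGGTGNGG, the CACCC-type letters that KLF proteins bind.
Gm29933, chr11:95808555-95808854, minus strand: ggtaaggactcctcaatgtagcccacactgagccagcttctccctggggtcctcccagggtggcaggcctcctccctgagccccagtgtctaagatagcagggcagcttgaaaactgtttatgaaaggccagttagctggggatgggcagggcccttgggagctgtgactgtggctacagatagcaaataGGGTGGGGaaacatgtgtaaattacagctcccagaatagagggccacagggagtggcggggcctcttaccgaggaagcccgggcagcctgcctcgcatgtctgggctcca
Gm38516, chr15:56765151-56765450, plus strand: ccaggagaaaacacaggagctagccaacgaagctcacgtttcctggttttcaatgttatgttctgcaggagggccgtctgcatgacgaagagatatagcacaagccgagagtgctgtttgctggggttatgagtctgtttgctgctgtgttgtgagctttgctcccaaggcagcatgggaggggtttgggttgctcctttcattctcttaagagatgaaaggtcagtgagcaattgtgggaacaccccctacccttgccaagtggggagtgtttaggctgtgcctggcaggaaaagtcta
Gm32796, chr16:29977820-29978119, plus strand: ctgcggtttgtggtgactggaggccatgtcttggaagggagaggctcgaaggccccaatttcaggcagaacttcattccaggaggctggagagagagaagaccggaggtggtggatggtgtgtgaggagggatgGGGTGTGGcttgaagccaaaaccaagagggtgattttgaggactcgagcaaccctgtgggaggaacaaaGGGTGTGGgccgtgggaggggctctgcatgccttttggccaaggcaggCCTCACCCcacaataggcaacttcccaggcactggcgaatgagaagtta
Gm35551, chr17:84044537-84044836, minus strand: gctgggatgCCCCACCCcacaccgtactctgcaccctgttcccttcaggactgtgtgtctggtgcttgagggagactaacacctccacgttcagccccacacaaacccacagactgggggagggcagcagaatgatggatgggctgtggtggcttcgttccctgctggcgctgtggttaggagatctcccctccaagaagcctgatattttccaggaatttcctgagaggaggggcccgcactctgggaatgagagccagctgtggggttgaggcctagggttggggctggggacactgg
Gm32585, chr5:125252358-125252657, minus strand: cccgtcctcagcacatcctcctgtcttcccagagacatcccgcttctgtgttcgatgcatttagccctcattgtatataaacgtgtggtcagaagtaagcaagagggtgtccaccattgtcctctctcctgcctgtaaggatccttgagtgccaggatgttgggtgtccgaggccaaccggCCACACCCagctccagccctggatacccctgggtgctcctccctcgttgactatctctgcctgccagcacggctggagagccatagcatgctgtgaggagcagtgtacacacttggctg
Gm29936, chr16:8364963-8365262, minus strand: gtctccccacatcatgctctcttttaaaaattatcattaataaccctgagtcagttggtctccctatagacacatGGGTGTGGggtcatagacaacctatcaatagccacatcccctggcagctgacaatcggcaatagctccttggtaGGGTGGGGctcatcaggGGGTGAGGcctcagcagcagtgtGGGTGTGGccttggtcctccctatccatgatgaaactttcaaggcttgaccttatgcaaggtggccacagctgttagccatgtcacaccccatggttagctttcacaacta

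The Gm29933 window lay in a 611 bp member with a −log10 q of 51.3, 15.5 kb from Phospho1, a phosphatase of bone mineralisation, and held 1 match. Here and below, −log10 q and fold enrichment over local background are values of the authors' peak caller for the peak in the Klf4 list. The second Gm32796 window, in a 1058 bp member with a −log10 q of 26.2, held 3 matches, and the other window of this gene, also inside the member, held 3 as well. That member lay 87.2 kb from Hes1, the transcriptional repressor downstream of Notch. The Gm29936 window held 4 matches in a member with a −log10 q of 15.6, 44.0 kb from Tmem114. The Gm35551 and Gm32585 windows held 1 match each, in members with −log10 q of 25.6 and 25.6, 137.9 kb from Zfp36l2 and 24.1 kb from Scarb1. Another Gm35551 window, chr17:84026272-84026571, lay in a stronger member (−log10 q 33.7) and held no match. The Gm38516 window, in a member with a −log10 q of 43.1 that lay 70.3 kb from the hyaluronan synthase gene Has2, held no match. High strength in the Klf4 list thus occurred in windows with and without these letters.

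Counting 1 window per gene, the first listed, which for Gm35551 is the window without a match, CCNCACCC was present on either strand in 18 of 55 windows inside members (32.7%, interval 21.8 to 45.9%). It was present in 80 of 402 windows inside Klf4 peaks of the same width and distance that an empty vector peak overlapped (19.9%, interval 16.3 to 24.1%), and the intervals overlap. In windows more than 10 kb from protein-coding genes with no peak in either list the share was 10.1% (403 of 3978), and over all 26794 genes of the promoter table it was 16.4%. Among windows touched by a member for at least 1 bp the share was 28.0% (33 of 118, interval 20.7 to 36.7%), against 17.3% (101 of 584, interval 14.4 to 20.6%) for the overlapped peaks. For these larger sets the intervals narrowly do not meet. Median GC content was 53.3% inside members, 52.7% inside overlapped peaks and 45.7% in the windows without a peak, and the part of base composition in these shares was not tested. The GC box CCCGCCC was as frequent in members (10 of 55, 18.2%, interval 10.2 to 30.3%) as in overlapped peaks (74 of 402, 18.4%, interval 14.9 to 22.5%), against 2.69% without a peak. The intervals treat windows as independent, which not all are. Those of Gm31138 and 4930433N12Rik overlap and share a CCCGCCC site that is counted for both, and those of Gm41087 and Gm36476 have the same sequence.

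Other motifs were also counted on both strands. A core of the CTCF motif was found in 0 of 55 windows inside members, which allows a share of up to 5.455% by the limit of 3 counts and 6.53% by the Wilson interval, and in 51 of 402 windows inside overlapped peaks (12.7%, interval 9.78 to 16.3%). In touched windows the shares were 3 of 118 (2.54%, interval 0.868 to 7.21%) and 61 of 584 (10.45%, interval 8.22 to 13.2%). The NKX2 letters TNAAGTG were in 0 of 55 windows inside members and in 39 of 402 inside overlapped peaks (9.70%), but in 8 of 118 (6.78%, interval 3.475 to 12.8%) and 59 of 584 (10.1%, interval 7.91 to 12.8%) touched windows, whose intervals overlap. The RFX letters GTTGCCA were in 1 of 55 (1.82%, interval 0.322 to 9.61%) and 32 of 402 (7.96%) windows. The AP-1 letters TGANTCA (9.09% and 11.7%), the forkhead letters TGTTTAC (5.455% and 6.965%) and the E-box CANATGG (14.55% and 17.66%) had overlapping intervals in both sets. In the distant lncRNA windows without a peak the CTCF core was in 3.95%, which lies inside the interval of the 0 of 55, TNAAGTG in 14.4%, GTTGCCA in 5.10%, TGANTCA in 10.4%, TGTTTAC in 5.13% and CANATGG in 19.03% of windows. Over all 9520 lncRNA genes of the table the CTCF core was in 6.355%, TNAAGTG in 12.7% and CCCGCCC in 10.7%, and over all genes they were in 8.62%, 11.6% and 25.8%. A match to these letters is not a binding site, and windows at lncRNA starts are a small part of the members.

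**Figure D1:**
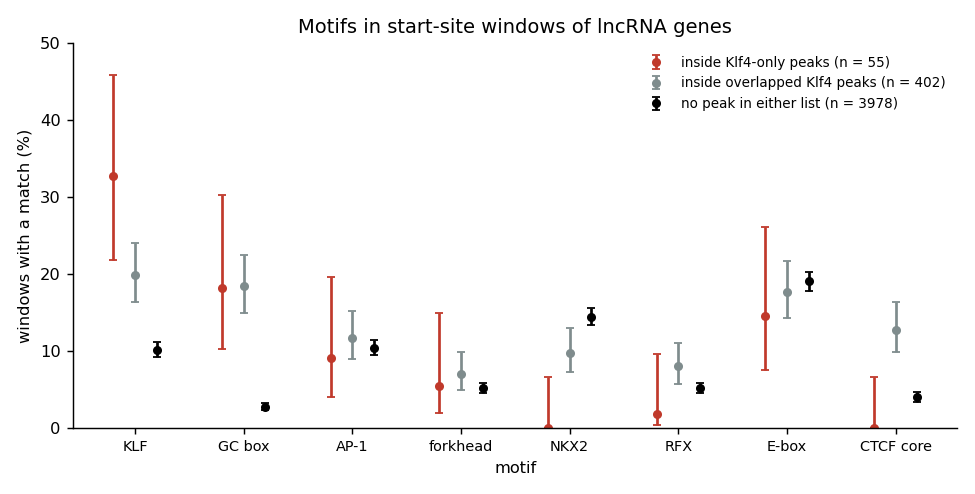
Share of 300-base start-site windows of lncRNA genes with a match to each motif on either strand (%, vertical axis), for windows inside members (red), inside overlapped wide Klf4 peaks far from protein-coding genes (grey) and more than 10 kb from protein-coding genes with no peak in either list (black). Points are shares and bars 95% Wilson intervals; the KLF share was 32.7% in members against 19.9% and 10.1%, and the CTCF core was found in 0 of 55 member windows.

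The members were narrower and weaker than overlapped peaks. Their median width was 714 bp (quartiles 589 and 932 bp, largest 3232 bp), their median fold enrichment 3.64 (quartiles 3.00 and 4.70) and their median −log10 q 5.885 (quartiles 3.32 and 10.9). The 13439 Klf4 peaks of the same width and distance that an empty vector peak overlapped had medians of 785 bp, 4.96 and 13.45. The rule uses the absence of a call in the other list, so this order is a description. A region absent from the empty vector list can be accessible there below the peak caller's threshold, and a peak in some of the cells cannot be told apart from a weaker one in all of them.

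Of 17617 Klf4 peaks with this width and distance, 23.7% were members. The share was 22.7% over all 65669 Klf4 peaks of at least 500 bp, and 36.7% over all Klf4 peaks of any width. The mirror set, 919 empty-vector-only peaks of the same width and distance, was 6.09% of 15083, so members outnumbered it 4.55 times, while all such wide distant peaks of the 2 lists differed 1.17 times. Over all wide list-specific peaks, wherever they lay, that ratio was 5.42, and over list-specific peaks of any width it was 2.51. The ratio of members to mirror peaks was larger at higher strength. At a −log10 q under 2 there were 335 members and 338 mirror peaks, from 2 to 5 there were 1449 and 467, from 5 to 10 there were 1233 and 101, from 10 to 20 there were 841 and 13, and at 20 or more there were 320 and 0. Members and mirror peaks were about equally numerous among the weakest calls, and the strongest held members alone. A similar rise was present in wide peaks closer to protein-coding genes, so it was not particular to the distant ones. Inside these genes there were 693 Klf4-only and 592 empty-vector-only peaks under 2, and 2117 and 23 from 10 to 20. Outside them but within 10 kb the counts were 120 and 118, and 370 and 9. Limiting members to a −log10 q of at least 5 left 2394 of them, and a width of at least 1000 bp left 831.

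**Figure D2:**
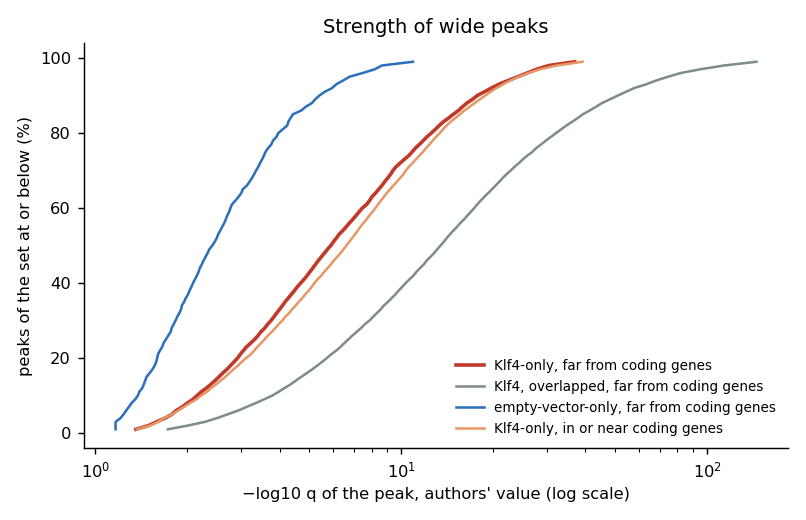
Cumulative share of each set of wide peaks (%, vertical axis) against the −log10 q of the peak (log scale, horizontal axis), from the 1st to the 99th percentile. The members (red, median 5.885) lie between the empty-vector-only peaks far from protein-coding genes (blue, median 2.41) and the overlapped Klf4 peaks far from protein-coding genes (grey, median 13.45), close to the Klf4-only peaks in or near protein-coding genes (orange, median 6.62).

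Around the limits of the rule, Klf4-only distant peaks ran on without a break. In the 10 bp steps on either side of the width limit there were 136 above it and 146 below it, and 10691 such peaks in all were under 500 bp. Peaks of exactly 500 bp had as nearest protein-coding genes Bbs10 (−log10 q 4.07, 32214 bp away), Qk (1.95, 66185 bp) and Rgs3 (11.95, 41439 bp), and peaks 1 bp narrower Col6a3 (6.15, 13828 bp), Ahi1 (3.68, 68006 bp) and Rfpl4b (9.245, 708028 bp). At the distance limit, the members nearest to a gene lay 10002 bp from Pcsk1, 10007 bp from G0s2 and 10011 bp from D430019H16Rik. Just outside it were peaks 9975 bp from Tulp1, 9955 bp from Acot11 and 9953 bp from Pdgfb. The closest empty vector peak to any member was 11 bp away, 281 members (6.73%) had one within 1 kb, and 22 peaks were left out although an empty vector peak covered fewer than 50 bp of them. The median distance from a member to an empty vector peak was 6047.5 bp (quartiles 2712 and 13782 bp), and 235 members (5.625%) had none within 50 kb.

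The share of members changed with distance from protein-coding genes. It was 23.7% (921 of 3883) at 10 to 20 kb, 25.6% at 20 to 50 kb, 24.6% at 50 to 100 kb and 25.1% at 100 to 200 kb. It was 18.7% (357 of 1905, interval 17.05 to 20.55%) at 200 to 500 kb and 7.24% (33 of 456, interval 5.20 to 9.99%) beyond 500 kb. The empty-vector-only share ran the other way, from 5.055% (161 of 3185) at 10 to 20 kb to 9.49% (58 of 611, interval 7.42 to 12.1%) beyond 500 kb. In the deepest gene deserts the mirror set was therefore the larger one, 58 against 33. Among peaks with a −log10 q from 5 to 20 the member share was 25.2% at 10 to 20 kb and 6.28% (15 of 239, interval 3.84 to 10.1%) beyond 500 kb. The lower member share was thus also present at similar strength, whereas the larger mirror set was not: 15 members stood against 7 mirror peaks beyond 500 kb. The empty-vector-only share at this strength was 1.45% (interval 0.943 to 2.23%) at 10 to 20 kb and 2.58% (interval 1.26 to 5.235%) beyond 500 kb, with overlapping intervals.

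**Figure D3:**
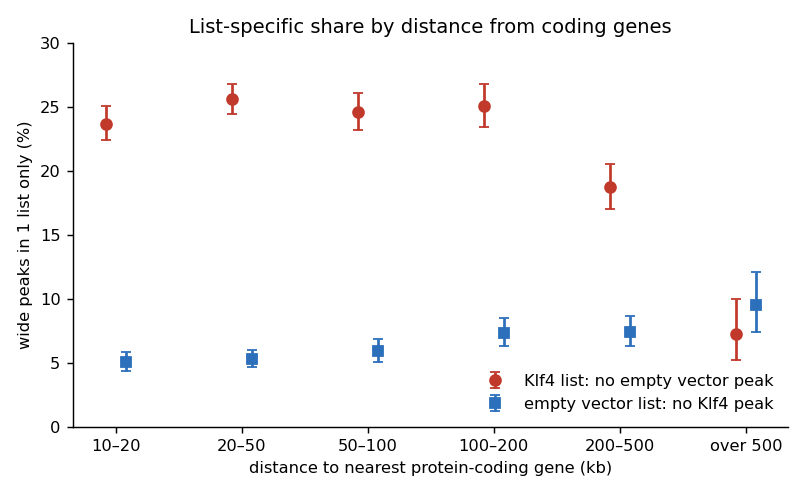
Share of wide peaks found in 1 list only (%, vertical axis) by distance to the nearest protein-coding gene (kb, horizontal axis), with 95% Wilson intervals. Klf4-only shares (red circles) stay between 23.7 and 25.6% up to 200 kb and reach 7.24% beyond 500 kb, while empty-vector-only shares (blue squares) go from 5.055 to 9.49%.

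The Klf4-only share of wide peaks was lower far from protein-coding genes than inside them at a −log10 q from 2 to 20, and higher among the strongest. Under 2 the shares far from and inside these genes were 55.5% (interval 51.5 to 59.4%) and 61.4% (interval 58.5 to 64.2%), with overlapping intervals. From 2 to 5 they were 42.9% (interval 41.3 to 44.6%) and 46.3% (interval 45.0 to 47.6%). At a −log10 q from 5 to 10, 29.1% (interval 27.7 to 30.45%) of wide Klf4 peaks far from protein-coding genes and 35.6% (interval 34.5 to 36.6%) of those inside them were Klf4-only. From 10 to 20 the shares were 18.97% (interval 17.8 to 20.15%) and 24.8% (interval 23.9 to 25.7%). From 20 to 50 they were 8.56% and 8.265%, with overlapping intervals, and at 50 or more 1.13% (interval 0.699 to 1.83%) and 0.370% (interval 0.264 to 0.516%). Wide peaks outside protein-coding genes but within 10 kb of them had 31.2%, 21.95%, 9.44% and 1.37% in the 4 ranges from 5 upwards. The higher share among the strongest was thus not particular to the distant peaks. Nor was the lower share from 5 to 10, where the interval of these nearer peaks was 29.0 to 33.6%.

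By chromosome, the member share of wide distant Klf4 peaks was highest on chromosome 5 (379 of 1258, 30.1%, interval 27.7 to 32.7%), followed by chromosome 2 (27.7%) and chromosome 17 (27.0%). It was lowest on chromosome 3 (164 of 901, 18.2%, interval 15.8 to 20.85%), next to chromosome 18 (19.3%) and chromosome 13 (20.1%). The intervals of neighbours in this order overlap, and those of chromosomes 5 and 3 do not. The empty-vector-only share lay between 4.59% (chromosome 7) and 7.60% (chromosome 1). Across the 20 chromosomes, which share libraries and peak calling, the member share and the number of protein-coding genes per Mb had a Spearman rho of 0.55 and a Pearson r of 0.46, and the empty-vector-only share a rho of −0.29 and an r of −0.36, given as description.

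**Figure D4:**
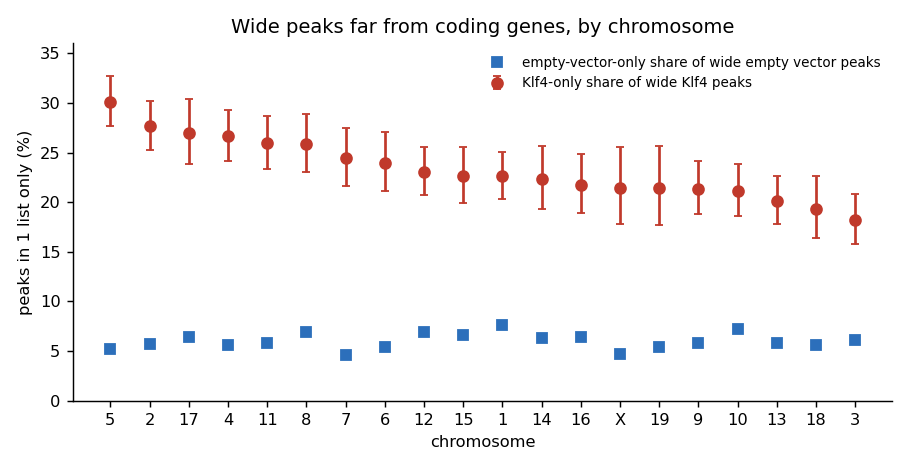
Share of wide peaks far from protein-coding genes found in 1 list only (%, vertical axis), by chromosome in order of the Klf4-only share. Red circles with 95% Wilson intervals are the Klf4-only shares, from 30.1% on chromosome 5 to 18.2% on chromosome 3; blue squares are the empty-vector-only shares, between 4.59 and 7.60%.

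Members had other Klf4-only peaks beside them. For 1993 of 4178 members (47.7%, interval 46.2 to 49.2%) the nearest Klf4 peak of any width was itself absent from the empty vector list, against 34.6% (interval 33.8 to 35.45%) for overlapped distant peaks. The share was 47.6% (interval 46.6 to 48.5%) for wide Klf4-only peaks in or near protein-coding genes, so it was not particular to the distant ones. Of the members, 2333 (55.8%) had another member within 50 kb. Within the larger sets the same measure was 76.0% for overlapped distant peaks and 75.02% for Klf4-only peaks in or near genes, and in the smaller mirror set it was 10.99%; set size differs and its part was not tested. Linked at this distance they formed 775 groups of at least 2, of which 87 held 5 or more and 10 held 10 or more (154 members in all), while 1845 stood alone. Of 341 windows of 1 Mb with at least 15 wide distant Klf4 peaks, 24 had more members than overlapped peaks, and the median member share was 24.1%.

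The largest group lay next to Foxl1, a forkhead factor of gut mesenchyme, at the end of a forkhead gene cluster on chromosome 8. It had 27 members in 336.5 kb (chr8:121148554-121485051), 505 to 1727 bp wide (median 750 bp), with −log10 q from 1.94 to 30.03 (median 6.19) and fold enrichments from 2.085 to 5.465. Their median −log10 q was near that of all members (5.885). Over the same stretch the Klf4 list had 64 peaks, 58 of them Klf4-only, covering 35.0 kb. The empty vector list had 6 peaks covering 2.29 kb, none of them list-specific. The strongest member, chr8:121446146-121446900, had a −log10 q of 30.03 and lay 83876 bp from 1700018B08Rik. The member nearest to Foxl1, chr8:121148554-121150280, was also the widest and lay 17910 bp from it. Of the 27 members 2 overlapped a non-coding gene, Gm42046 and Gm33823.

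A further group of 17 members (−log10 q 1.48 to 40.4, median 4.94) lay on the other side of the cluster, between Irf8, a transcription factor of myeloid cells, and Foxf1, a forkhead factor of lung and gut mesenchyme. It was singled out after its values were seen. Its strongest member was chr8:120973149-120974115 (967 bp), 110271 bp from Foxf1, and 2 of its members overlapped Fendrr, the lncRNA that neighbours Foxf1. From Irf8 to 1700018B08Rik (chr8:120736358-121544339, 808.0 kb) the Klf4 list held 139 peaks covering 78.9 kb, of which 116 were Klf4-only (83.45%, interval 76.4 to 88.7%), against 36.7% of all Klf4 peaks, and 44 were members. The segment was chosen because it holds the largest group. The empty vector list held 25 peaks covering 13.0 kb, of which 3 were list-specific, 1 of these in the group of 17 members. From the empty vector peak just after Foxl1 to the next one lay 246.7 kb (chr8:121130942-121377663). There the Klf4 list had 48 peaks, of which 19 were members. The limits of this stretch fix that it holds no empty vector peak and that none of the 48 is overlapped. Between Foxf1 and Foxl1, a stretch that also holds Foxc2, a forkhead factor of lymphatic vessels, the lists were closer, with 11 Klf4 peaks, 4 of them Klf4-only, and 6 empty vector peaks.

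**Figure D5:**
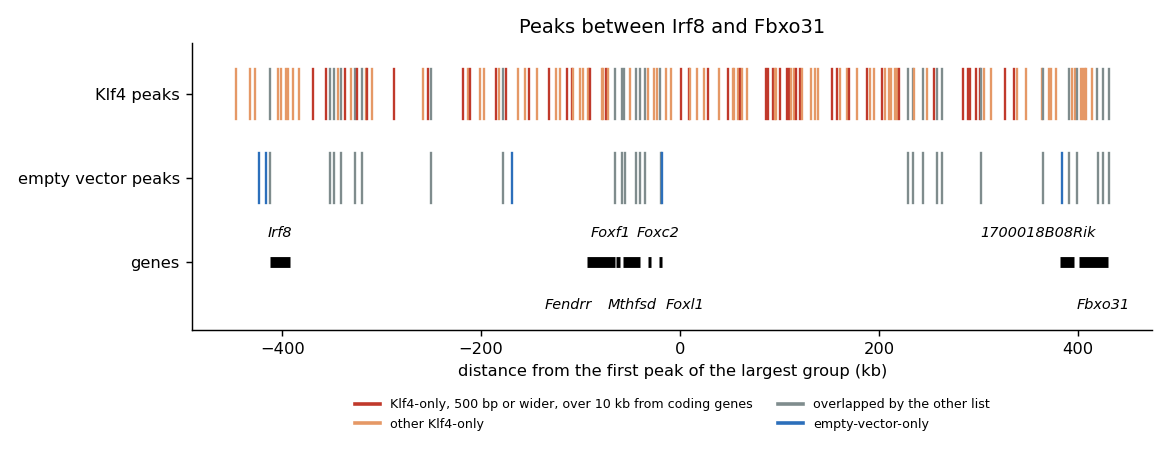
Peaks of both lists and genes around the forkhead cluster of chromosome 8, by distance from the first peak of the largest group (kb, horizontal axis). Each vertical line is the centre of a peak: members in red, other Klf4-only peaks in orange, peaks overlapped by the other list in grey and empty-vector-only peaks in blue; 139 Klf4 peaks and 25 empty vector peaks lie from Irf8 to 1700018B08Rik.

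Of the other groups with 10 or more members, all also named after their values were seen, the next in size had 21 members in 442.5 kb between Gm6569 and Adgrb1, an adhesion receptor of brain and muscle precursors, with 58 Klf4 and 26 empty vector peaks, and 14 of these members overlapped a non-coding gene. Beside Mn1, a transcriptional co-regulator of craniofacial development, there were 17 members in 259.7 kb, with 52 and 19 peaks. Near Cryba4, a lens crystallin gene, there were 13 members in 227.5 kb, with 47 and 22 peaks, and the members overlapped the lncRNA genes Gm30032 and Miat. Between Cebpb, a transcription factor of fat and liver cells, and Ptpn1, a phosphatase that acts on the insulin receptor, there were 14 members in 196.7 kb. A group of 11 next to Alx4, a homeobox factor of limb and skull, came with 20 Klf4 peaks (18 Klf4-only), 2 empty vector peaks and member −log10 q of up to 49.1. The remaining groups lay near Adgrd1 and Sfswap (13 members), Grm4 and Lemd2 (11) and Efnb1 and Pja1 (10). Several of these stretches also held empty-vector-only peaks. There were 9 among 22 empty vector peaks in the Adgrd1 group, 5 among 18 in the Grm4 group, 4 among 19 in the Cebpb group, 6 among 26 in the Adgrb1 group, 3 among 22 in the Cryba4 group and 2 among 19 in the Mn1 group. There were 0 in the Alx4 and Efnb1 groups.

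Members were spread over many genes. They had 2441 different nearest protein-coding genes (11.3% of 21627, and 42.4% of the 5755 genes that are nearest to any wide distant Klf4 peak), 1635 of these with 1 member and 16 with 10 or more. Cryba4 and Mn1 led with 17 members each, beside 22 overlapped wide distant Klf4 peaks each. Foxl1 and the corepressor gene Tle3 followed with 16. Tle3 had 22 overlapped peaks and Foxl1 had 0. Foxf1 (10 members) and Rps6kc1 (9 members) also had 0, and Bcl11b, a zinc finger factor of T cells, had 9 members and 1 overlapped peak. At Ajap1 (15 members, 7 overlapped), Med13l, a Mediator subunit gene (14 and 10), Auts2 (13 and 9) and Dio3, the thyroid hormone-inactivating deiodinase (12 and 7), members were also the larger part. The nearest gene is a matter of position and need not be the gene a region acts on.

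The strongest members lay on several chromosomes. The 10 with the highest −log10 q ranged from 57.7 to 143, ranked 1794 to 9853 among all Klf4 peaks, and none was in the largest group. The first was chr15:99549800-99550596 (797 bp, −log10 q 143, fold enrichment 6.74), 14920 bp from Faim2, an inhibitor of Fas-mediated cell death. The interval from 97 to 100 Mb of chromosome 15 that holds it had 11 members among 63 wide distant Klf4 peaks. The highest fold enrichments were 15.2 at chr15:47539441-47540136, 40502 bp from Csmd3, and 15.05 at chr1:35169011-35169526, 289426 bp from Plekhb2. A member near Tnfrsf13b, a B cell receptor of the TNF receptor family (chr11:61099501-61100350), had a −log10 q of 86.05 and that 74038 bp from Ube2u (chr4:100624183-100624812) one of 66.7. The others had as nearest protein-coding gene Tmem150c (65.1, in the pseudogene Gm8091, 57125 bp away), Cabcoco1 (62.0, 54592 bp), Adgrl2 (61.0, in the lncRNA gene Gm30382, 440553 bp), Uspl1 (58.2, in the lncRNA gene Mm2pr, 12130 bp) and Oxsm (57.7, 351661 bp). In all, 93 members (2.23%) overlapped a pseudogene, against 1.88% of overlapped distant peaks. Where copies are near-identical, read placement is uncertain.

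The widest members were not the strongest. The widest, 3232 bp at chr17:48218690-48221921, lay 10792 bp from Trem1, a receptor of myeloid cells, with a −log10 q of 5.37. The second, 2658 bp at chr16:63460394-63463051, lay 80481 bp from the ephrin receptor gene Epha3 with a −log10 q of 36.7. The next 3 were 2553 bp near Zfp354a (5.85), 2504 bp near Tagap (13.8) and 2435 bp at 237223 bp from Samd9l (5.08), and those near Zfp354a and Tagap overlapped lncRNA genes. Among the members farthest from a protein-coding gene were chr5:60479085-60479652, 1329191 bp from G6pd2 (−log10 q 2.29), chr8:97215068-97215757, 1326667 bp from Got2 (20.2), chr2:8534090-8535383, 1137749 bp from Celf2 (1.84), and chrX:131589837-131590514, 1124003 bp from Diaph2 (12.95).

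Of 5 gene lists, that of the Klf and Sp family was the longest and had the largest number of members nearby, but not the largest member share of its distant peaks. Members were the neighbours, by nearest protein-coding gene, of 10 of 26 Klf and Sp genes (38.5%), 4 of 12 alpha cell genes (33.3%), 5 of 20 epithelial genes tied to Klf4, 3 of 14 islet transcription factor genes (21.4%) and 1 of 12 beta cell genes (8.33%), against 11.3% of all protein-coding genes. A wide distant Klf4 peak of either kind was nearest to 7 of the 12 alpha, 8 of the 20 epithelial, 8 of the 14 islet factor and 7 of the 12 beta genes, against 5755 of all 21627, so these shares are not read against the 11.3%. Of the 26 Klf and Sp genes, 16 were nearest to a wide distant Klf4 peak of either kind, with 19 members beside 75 overlapped peaks, which is no larger a member share than the 23.7% over all. The other lists had 4 members beside 13 overlapped peaks (alpha), 7 beside 11 (epithelial), 3 beside 24 (islet factors) and 3 beside 27 (beta). The alpha, islet factor and beta lists thus also had no larger a member share than the 23.7% over all. The epithelial list had a larger one, on few peaks, and the difference was not tested.

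Within the Klf family, Klf13 had 4 members (−log10 q 1.98 to 8.91), Klf10 and Klf14 had 3 each, Klf7 and Sp3 had 2, and Klf3, Klf4, Klf6, Klf12 and Klf17 had 1. Klf10 is a TGF-beta-induced repressor, and 2 of its 3 members were the strongest of the family list, at chr15:38391250-38392095 (−log10 q 45.8, 90.5 kb away), chr15:38373847-38375322 (24.8) and chr15:38332631-38333363 (2.06). At Klf4 itself the member chr4:55591703-55592378 (676 bp, −log10 q 3.83) lay 59.2 kb from the gene, beside 10 overlapped peaks, and 605 bp from an empty vector peak. Of the epithelial genes, Grhl1, a grainyhead factor of surface epithelia, had the strongest member (−log10 q 21.1, 16.1 kb away), and Sprr2a1, a cornified envelope gene, 1 of 12.0. Grhl2 had 2 (6.32 and 3.54), Epcam 2 (4.90 and 1.37) and Esrp1 1 (7.96).

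Of the beta cell genes, Nkx6-1, the homeobox factor of beta cell identity, had 3 members 15.9 to 23.0 kb away, at chr5:101634061-101636167 (2107 bp, −log10 q 12.1), chr5:101680617-101681498 (13.5) and chr5:101687677-101688829 (3.93), beside 7 overlapped peaks. Ins1 had 0 members beside 5 overlapped peaks, Pdx1 0 beside 2 and Slc30a8 0 beside 9. Of the alpha cell genes Irx2 had 1 member (−log10 q 4.04) beside 5 overlapped peaks and Gc 1 (2.69) beside 0, while Gcg had 0 beside 1. Pax6, a factor of islet hormone cell differentiation, had 1 in its antisense lncRNA gene Pax6os1 (10.97), Foxa2 1 (1.55) and St18 1 (2.78), and Nkx2-2 had 0 beside 1.

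Some members lay at microRNA genes. Of the 1005 microRNA genes in the RefSeq sequence table, 28 had a member within 10 kb, through 22 members (0.527%, interval 0.348 to 0.796%), against 0.774% (interval 0.639 to 0.937%) of overlapped distant peaks. A member overlapped the hairpin of Mir138-1 (chr9:122682675-122683300, −log10 q 16.8) and of Mir675 (chr7:142576565-142577162, 8.76). Their mature products are shown for identity, with the seed (bases 2 to 8) in capitals.
mmu-miR-138-5p: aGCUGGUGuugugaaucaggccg
mmu-miR-138-1-3p: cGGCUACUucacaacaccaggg
mmu-miR-675-5p: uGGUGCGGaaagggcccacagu
mmu-miR-675-3p: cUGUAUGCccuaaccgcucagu
The 4 seeds differ from each other. Members also lay within 1 kb of Mir296 and Mir298, in the imprinted Gnas region (6.005), and of Mir202 (12.4). A member 1489 bp from Mir106a lay beside the X-linked microRNA cluster of Mir106a, Mir18b, Mir20b, Mir19b-2, Mir92-2 and Mir363 (chrX:52744056-52744814, 11.8). Mir34a, a microRNA of the p53 response, had 2 members within 10 kb (14.8 and 4.12).

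Mir675 is made from H19, the imprinted lncRNA whose maternal allele is expressed in place of paternal Igf2, the insulin-like growth factor gene, under shared enhancers. From Mrpl23 to Igf2 (chr7:142532467-142666816, 134.3 kb) the Klf4 list had 27 peaks, 21 of them Klf4-only and 9 of them members, and the empty vector list had 7. The members had −log10 q from 1.78 to 17.2. Of the 9, 1 lay in H19, 2 between H19 and Nctc1 within 10 kb of H19, and 2 in Nctc1, an lncRNA gene on the side away from Igf2. The strongest, chr7:142605226-142605875 (650 bp, 17.2), lay in Gm33148, 44893 bp from Igf2. This locus was singled out after its values were seen. The lists do not separate the parental alleles.

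Overlap with non-coding genes was similar in members and overlapped distant peaks, but overlap with their starts was not. A non-coding gene was overlapped by 24.6% of members, 25.3% (interval 24.6 to 26.1%) of overlapped distant peaks and 22.3% (interval 19.7 to 25.1%) of mirror peaks. An lncRNA gene was overlapped by 917 members (21.95%, interval 20.7 to 23.2%) and 22.55% of overlapped peaks, a difference within the intervals. A window at an lncRNA start was touched by 2.80% of members (117 of 4178, interval 2.34 to 3.35%), 4.20% of overlapped peaks (564 of 13439, interval 3.87 to 4.55%) and 0.8705% of mirror peaks (8 of 919, interval 0.442 to 1.71%). These 3 intervals do not overlap. Members were also narrower (median 714 against 785 bp), and the part of width was not tested. More than 10 kb from genes of every biotype lay 2101 members (50.3%, interval 48.8 to 51.8%), 53.2% of overlapped peaks (interval 52.3 to 54.0%) and 59.85% of mirror peaks (interval 56.6 to 62.97%), and these intervals do not overlap.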

How the data were processed

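The deposited data are 2 merged peak lists (broadPeak format), 1 for the 4 empty vector and 1 for the 4 Klf4 libraries. Reads were processed with FastQC, Bowtie2, MACS2 and DiffBind against mm10, per the submitters' processing notes, which give no versions or thresholds. The fold enrichment of each peak, its −log10 q and a display score are values the authors deposited. The lowest −log10 q was 1.00 in the Klf4 list and 1.02 in the empty vector list. The labels name an ATAC kit and, for library preparation, an mRNA-seq kit, although the molecule is genomic DNA, and this was not resolved. How the libraries of a group were merged, and their depth, is not given in the sources used here.

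Peaks on chromosomes 1 to 19 and X were intersected with each other (1 bp counts as overlap) and with RefSeq genes of GRCm38.p6, the assembly called mm10. Shares carry 95% Wilson intervals. The members and gene lists were chosen with earlier results of these data known. Named regions are the 10 highest by −log10 q, the 5 widest, the 5 farthest from a protein-coding gene, 3 on each side of each limit, the largest group linked at 50 kb, and those nearest to list genes. Others are said to be chosen after their values were seen. Motifs were counted on both strands of RefSeq start-site windows, a search added after the lists were seen in place of one over the members themselves, which needs a genome. Positions on chromosome 18 and some genes of the lists are not reported here. On simulated data, 1335 of 1335 planted regions that met the rule were found among 105049. Planted regions were placed away from empty vector peaks and scored with the same distance code and limits. That count was therefore fixed in advance and only shows that the code ran as written. Separately, bedtools 2.31.1 gave the same number of members, 4178. Python 3.11.15, numpy 2.4.6, pandas 2.3.3 and matplotlib 3.10.9 were used. Alternatives varied the strength, width, distance, overlap and linking limits.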

Additional observations from a re-analysis of the deposited data

How the results depend on the processing

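There is 1 merged list per group, so no result could be tested and no library left out in turn. No paired analysis was possible because each group has 1 merged list without replicate columns. Motif and base composition results over the members' own centres were not run. The number of members, 4178, fell to 2394 when a −log10 q of 5 or more was required, and was 831 at a width of at least 1000 bp, 1865 beyond 50 kb from protein-coding genes and 2101 beyond 10 kb from genes of every biotype. Under the same 4 settings the share of wide distant Klf4 peaks without an empty vector peak, 23.7%, was 17.6%, 17.2%, 22.5% and 22.7%. That share was 22.1% when an empty vector peak within 1 kb also removed a peak, and 36.4% when only empty vector peaks with a −log10 q of at least 5 counted. The median distance to an empty vector peak, 6047.5 bp, was 7488 bp beyond 50 kb, 6487 bp for every biotype and 6842 bp with the 1 kb rule, which removes the nearest cases by construction. The share in non-coding genes, 24.6%, was 26.35% at 1000 bp and 26.5% beyond 50 kb. The share with another member within 50 kb, 55.8%, was 43.3% among the stronger members (−log10 q of 5 or more), 27.6% at 1000 bp, 43.2% for every biotype and 53.1% with the 1 kb rule, and with fewer members it has fewer neighbours to find. It was 42.05% within 25 kb and 66.5% within 100 kb. The share of start-site windows with the KLF letters, 32.7%, was 74.55% with the shorter CACCC, beside 59.95% inside overlapped peaks, 46.9% without a peak and 56.96% over all genes, an alternative chosen after seeing the data. The other 8 values stayed inside the interval of the main value or, for the number of members, within the 1.5-fold limit set for counts (3897 with the 1 kb rule, 6036 when 50% had to be covered).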

Other observations

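Some stretches of 1 Mb beyond the groups of 10 or more were also mostly members, and were noticed after their values were seen. From 116 to 117 Mb of chromosome 5, 13 of 15 wide distant Klf4 peaks were members (86.7%, interval 62.1 to 96.3%), while the empty vector list had 2 wide distant peaks. From 142 to 143 Mb of chromosome 7, which holds H19, 13 of 18 were members (72.2%, interval 49.1 to 87.5%), beside 8 wide distant empty vector peaks, 1 of them list-specific, and from 190 to 191 Mb of chromosome 1, 12 of 16, beside 10 such peaks, 2 of them list-specific.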
